A study of Homo sapiens with 2 samples.

Results

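Peaks of open chromatin were examined at 10 genes of the Wnt/beta-catenin pathway in HepG2, a cell line derived from a human liver cancer. The genes were CTNNB1, which encodes beta-catenin, the TCF/LEF transcription factor genes TCF7, TCF7L1, TCF7L2 and LEF1, the destruction complex genes APC, GSK3B and AXIN2, and the Wnt target genes LGR5 and MYC. They were chosen by name, with earlier results of these data known. A peak was kept when the deposited annotation gave 1 of these genes as its nearest gene. This selected 47 of 56159 peaks, at 8 of the 10 genes, and TCF7L1 and LEF1 had no peak under their own name. The lists named 13858 genes in all.

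Open chromatin was measured by FAIRE-seq (formaldehyde-assisted isolation of regulatory elements), which sequences DNA left free of crosslinked protein. The control library came from HepG2 cells that received lentiviral particles with a scrambled small hairpin RNA, and the NR2E3-depleted library from HepG2 cells that received particles with a small hairpin RNA targeting NR2E3, a nuclear receptor. Each group had 1 library, so no difference below has a replicate check and no test between the conditions was possible. The time from transduction to fixation is not given in the sources used here, and FAIRE does not measure how far NR2E3 was depleted.

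In the canonical Wnt pathway a destruction complex built on the AXIN scaffolds and APC holds beta-catenin while GSK3B and casein kinase 1 mark it for degradation. A Wnt signal stops this complex, and beta-catenin then enters the nucleus and joins the TCF/LEF factors at target genes, some of which, such as AXIN2, feed back on the pathway. In the liver the pathway is known for setting the gene program of hepatocytes near the central vein, and HepG2 cells are known to carry a shortened beta-catenin that escapes degradation.

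The peaks were deposited in 3 lists: 14368 common to both libraries, 16236 specific to the control library and 25555 specific to the NR2E3-depleted library. Each peak spans 300 bp and carries a score, which is a tag (aligned read) number scaled to depth. A tag was worth 0.407 score units in the common and control-specific lists and 0.507 in the depleted-specific list. Scores of common peaks are therefore on the scale of the control library, and their scores in the depleted library were not analysed here. From these steps the depleted library held 0.802 times the tags of the control library. The lowest listed peak had 10 tags in the control-specific list and 8 tags in the depleted-specific list, and the median was 14 and 12 tags. Single peaks were thus measured with low precision, and the 95% intervals given here cover only counting error. Promoter peaks are those the deposited annotation classed as lying at a transcription start site (TSS), and distances run from the peak centre to the nearest annotated TSS, negative when upstream. Positions are on hg38.

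The sequences of the promoter peaks are shown because these windows lie at the start sites of the genes, where some were listed in both libraries and others in 1 alone. The MYC promoter peak, the control-specific one, is described with its gene and its sequence is not shown. Letters are those of the forward strand, 5′ to 3′, without parts that lie in an untranslated exon. Capitals mark matches to the TCF/LEF site CTTTGAA or CTTTGAT and to the Sp1 site GGGCGG on either strand, where neighbouring Sp1 matches may overlap. The common promoter peaks, listed in both libraries, were at TCF7, APC, GSK3B and AXIN2.
TCF7 promoter, common, chr5:134114410-134114680: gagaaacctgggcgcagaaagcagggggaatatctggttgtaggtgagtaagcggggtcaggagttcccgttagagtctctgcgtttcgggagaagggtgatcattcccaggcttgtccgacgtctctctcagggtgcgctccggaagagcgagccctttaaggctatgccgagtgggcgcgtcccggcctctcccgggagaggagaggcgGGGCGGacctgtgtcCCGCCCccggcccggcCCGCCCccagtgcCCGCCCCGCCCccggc
APC promoter, common, chr5:112707336-112707517: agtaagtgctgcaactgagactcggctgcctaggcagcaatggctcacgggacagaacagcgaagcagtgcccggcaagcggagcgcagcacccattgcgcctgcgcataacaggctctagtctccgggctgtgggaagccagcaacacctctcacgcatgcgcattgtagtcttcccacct
GSK3B promoter, common, chr3:120094995-120095260: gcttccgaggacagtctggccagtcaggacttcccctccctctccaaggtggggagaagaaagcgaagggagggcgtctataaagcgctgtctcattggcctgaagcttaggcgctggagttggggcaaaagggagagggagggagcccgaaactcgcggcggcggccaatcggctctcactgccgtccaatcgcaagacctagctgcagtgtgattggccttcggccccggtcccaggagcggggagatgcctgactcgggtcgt
AXIN2 promoter, common, chr17:65561728-65562027: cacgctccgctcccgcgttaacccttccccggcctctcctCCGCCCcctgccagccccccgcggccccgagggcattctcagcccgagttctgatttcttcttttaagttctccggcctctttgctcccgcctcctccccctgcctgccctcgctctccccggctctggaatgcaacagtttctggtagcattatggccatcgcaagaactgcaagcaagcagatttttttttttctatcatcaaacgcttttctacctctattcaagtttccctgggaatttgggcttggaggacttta

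The promoter peaks of TCF7L2 and LGR5 were listed in the NR2E3-depleted library alone.
TCF7L2 promoter, depleted-specific, chr10:112949961-112950246: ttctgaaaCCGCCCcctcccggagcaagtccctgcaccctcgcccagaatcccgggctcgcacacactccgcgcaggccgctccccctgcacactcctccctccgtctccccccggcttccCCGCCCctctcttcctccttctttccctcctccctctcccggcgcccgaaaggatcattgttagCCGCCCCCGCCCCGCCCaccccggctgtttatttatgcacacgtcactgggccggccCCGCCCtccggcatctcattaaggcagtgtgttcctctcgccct
LGR5 promoter, depleted-specific, chr12:71438954-71439253: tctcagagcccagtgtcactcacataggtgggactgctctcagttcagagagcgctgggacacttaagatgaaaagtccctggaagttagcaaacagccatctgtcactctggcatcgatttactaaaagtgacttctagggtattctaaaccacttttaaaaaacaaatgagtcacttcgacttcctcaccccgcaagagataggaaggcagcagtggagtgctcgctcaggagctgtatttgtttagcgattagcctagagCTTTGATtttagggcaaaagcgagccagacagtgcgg

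CTNNB1 had no promoter peak, and its highest-scoring peak of each list is shown instead. The common peak tied with another at the same score.
CTNNB1 intron 1, control-specific, chr3:41200526-41200825: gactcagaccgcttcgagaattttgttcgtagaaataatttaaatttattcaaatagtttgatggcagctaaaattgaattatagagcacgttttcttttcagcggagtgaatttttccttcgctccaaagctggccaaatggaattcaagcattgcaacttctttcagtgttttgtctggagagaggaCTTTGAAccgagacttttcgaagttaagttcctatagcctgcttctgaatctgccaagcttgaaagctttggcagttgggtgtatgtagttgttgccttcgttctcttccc
CTNNB1 upstream, depleted-specific, chr3:41117408-41117707: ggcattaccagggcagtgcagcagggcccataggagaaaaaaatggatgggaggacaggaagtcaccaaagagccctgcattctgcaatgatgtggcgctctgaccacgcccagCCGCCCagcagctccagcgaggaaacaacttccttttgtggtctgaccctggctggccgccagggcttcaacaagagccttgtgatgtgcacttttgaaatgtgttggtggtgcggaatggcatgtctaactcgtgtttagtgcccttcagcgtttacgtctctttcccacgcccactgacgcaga
CTNNB1 upstream, common, chr3:40911859-40912158: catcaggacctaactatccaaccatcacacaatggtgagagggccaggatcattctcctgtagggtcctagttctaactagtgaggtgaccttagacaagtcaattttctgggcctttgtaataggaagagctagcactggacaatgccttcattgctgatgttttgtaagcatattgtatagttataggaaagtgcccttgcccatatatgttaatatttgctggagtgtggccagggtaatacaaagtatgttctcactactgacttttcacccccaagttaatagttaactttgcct

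In these sequences the TCF7L2 promoter peak held 6 Sp1 matches and the TCF7 promoter peak 5, and the AXIN2 promoter peak held 1. The LGR5 promoter peak held 1 TCF/LEF match and no Sp1 match, and the control-specific peak in intron 1 of CTNNB1 held 1 TCF/LEF match. The shown stretch of the GSK3B promoter peak and of the APC promoter peak held neither. In the parts not shown, the APC peak had 1 Sp1 match and the TCF7 peak had 1 TCF/LEF match.

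Of the 47 peaks at the Wnt genes, 15 were common, 10 control-specific and 22 depleted-specific. AXIN2 had the most, with 5, 3 and 8 peaks in this order. CTNNB1 had 3, 2 and 4 peaks, TCF7 had 3, 1 and 2, TCF7L2 had 1, 1 and 4, and LGR5 had 1, 1 and 2. GSK3B had 1 common and 2 depleted-specific peaks, and APC had a single common peak. MYC was the reverse, with 2 control-specific peaks and none in the other lists. A peak in any list was found at 8 of the 10 genes, against 51.7% of 19974 protein-coding genes. Common peaks lay at 7 of the 10 genes against 26.8%, control-specific peaks at 6 against 21.0% and depleted-specific peaks at 6 against 36.3%. Among protein-coding genes with a peak the median was 2 peaks, and among the 8 Wnt genes it was 5. The 16 peaks of AXIN2 were reached by 3.64% of protein-coding genes with a peak and the 9 of CTNNB1 by 8.42%. The part of gene span and of local or chromosome-wide peak density in these counts was not tested.

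**Figure D1:**
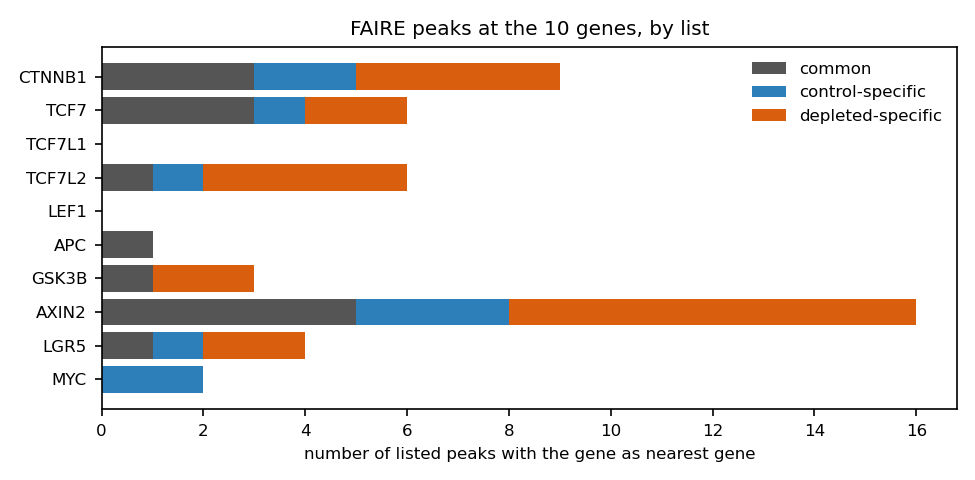
Number of listed FAIRE peaks (horizontal axis) with each of the 10 Wnt genes as nearest gene, coloured by list. AXIN2 held 16 of the 47 peaks, TCF7L1 and LEF1 held none, and MYC held control-specific peaks alone.

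The ratio of depleted-specific to control-specific peaks over the 10 genes was 2.2 (interval 1 to 5.2), so that 68.8% of their specific peaks (50 to 83.9) were depleted-specific. Over all peaks the ratio was 1.57 and the share 61.1%. The chromosomes that carry these specific peaks differed in this share, from 62.8% on chromosome 17, the chromosome of AXIN2, to 76.9% on chromosome 10, the chromosome of TCF7L2. Weighted by the chromosomes of their specific peaks, 71.1% would be depleted-specific. Without AXIN2 the share was 66.7% (43 to 85.4), against 75.5% for the chromosomes of the remaining genes. The surplus of depleted-specific peaks at these genes therefore did not stand apart from that of their chromosomes. With at least 15 tags asked of every peak the ratio at these genes was 0.714 (5 and 7 peaks) and over all peaks 0.707, so that it turned in the whole lists as well. With an equal score of at least 6 it was 2.71 at these genes and 2.61 over all peaks.

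Promoter peaks made up 7 of the 47 and lay at 7 of the 10 genes, against 28.1% of protein-coding genes. Common promoter peaks were at 4 genes (APC, AXIN2, GSK3B and TCF7), against 14.5%. A control-specific promoter peak was at 1 gene (MYC), against 3.65%, and depleted-specific promoter peaks were at 2 genes (TCF7L2 and LGR5), against 11.7%. Among genes with any promoter peak, a depleted-specific one was found at 2 of 7 of the Wnt genes, or 28.6% (3.67 to 71), and at 41.7% of protein-coding genes. The other 40 peaks lay in introns, between genes or at the 3′ end of a gene, and 34 of the 47 were more than 10 kb from the TSS.

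**Figure D2:**
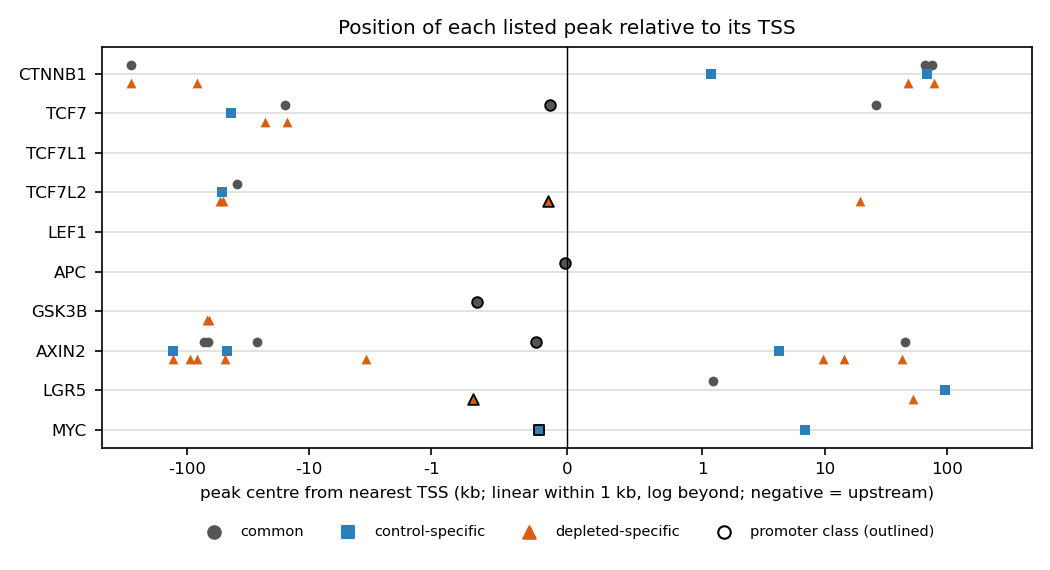
Distance of each peak centre from its nearest TSS in kb (horizontal axis, linear within 1 kb and logarithmic beyond), by gene and list, with promoter peaks outlined. Promoter peaks of APC, AXIN2, GSK3B and TCF7 were common, those of TCF7L2 and LGR5 depleted-specific and that of MYC control-specific, and CTNNB1 had none.

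CTNNB1 encodes beta-catenin, the coactivator through which the pathway reaches its targets. Its peak closest to the TSS was the control-specific peak in intron 1 shown above, 1170 bp downstream, with a score of 7.32 from 18 tags (10.7 to 28.4). Of all control-specific peaks, 9.34% scored as high or higher. The nearest peak of the depleted library lay 47093 bp away, so no depleted peak was listed at this end of the gene. Measured from the outermost start of the gene in GENCODE, the intron 1 peak lay 5934 bp downstream.

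Most other CTNNB1 peaks lay near or past the 3′ end of the gene, in introns of the neighbouring gene ULK4, which overlaps CTNNB1 at that end. Common peaks there scored 6.1 at 66.6 kb and 5.29 at 75.5 kb downstream of the TSS. A control-specific peak between them, at 68.7 kb, scored 6.91 from 17 tags (9.9 to 27.2). Depleted-specific peaks at 48.3 kb and 78.7 kb both scored 6.59 from 13 tags (6.92 to 22.2). Upstream, the depleted-specific peak shown above had the highest score of the 9, 8.11 from 16 tags (9.15 to 26), at 81.9 kb, and 13.4% of depleted-specific peaks reached that score. A common peak at 287 kb and a depleted-specific peak at 290 kb upstream were 2099 bp apart. The counting intervals of the 9 peaks overlapped, and both libraries had peaks within ULK4.

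TCF7, a TCF/LEF factor known for its role in T cells, had a common promoter peak 122 bp upstream of the TSS with a score of 5.69 from 14 tags (7.65 to 23.5). This was in the lower part of its list, as 88% of common peaks scored as high or higher. The other common peaks scored 7.73 each, 15.9 kb upstream and 26.2 kb downstream, the latter classed as 3′ UTR where TCF7 and SKP1 overlap. The annotation measured this 3′ UTR peak from a later TSS, and from the GENCODE start it lay 35.1 kb downstream. A control-specific peak lay 43.5 kb upstream with a score of 6.51 from 16 tags, and depleted-specific peaks lay 23 kb and 15 kb upstream with a score of 7.1 from 14 tags each. The depleted-specific peak at 15 kb had its centre 854 bp from that of the common peak at 15.9 kb.

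TCF7L2, a TCF factor known as an effector of Wnt signalling in gut epithelium, had its only promoter peak in the depleted-specific list. It lay 137 bp upstream of the TSS and scored 6.08 from 12 tags (6.2 to 21), the median of its list, and 75.9% of depleted-specific peaks scored as high or higher. The nearest peak of the control library was 51194 bp away. The lower bound of its tag interval was under the 8 tags of the lowest listed depleted-specific peak. The same held for every depleted-specific peak of these genes with 14 tags or fewer, among them the LGR5 promoter peak (7.65 to 23.5). A second depleted-specific peak of TCF7L2 lay in an intron 19.6 kb downstream and scored 7.1 from 14 tags. The common peak, in intron 4 of the gene by the deposited annotation, scored 6.91 from 17 tags and was measured from a later TSS, 39.1 kb upstream of it. The remaining peaks formed a group about 51 kb upstream, within the noncoding gene LINC02935: a control-specific peak (6.51, 16 tags) and a depleted-specific peak (5.58, 11 tags) with centres 346 bp apart, and a depleted-specific peak 2502 bp further (6.08, 12 tags).

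TCF7L1, a TCF factor known mainly as a repressor, had no peak under its name, although 7 peaks lay within its span on chromosome 2 (85133392 to 85310387 in GENCODE) widened by 10 kb on each side. The annotation named TCF7L1-IT1, LOC102724579 or TGOLN2 as their nearest gene. They were 1 common peak, 3 control-specific and 3 depleted-specific ones, the closest of them 62 kb downstream of the TSS. The highest was a depleted-specific peak named for TGOLN2 with a score of 11.2 from 22 tags (13.8 to 33.3), 167 kb downstream, and a common peak 174 kb downstream scored 8.95 from 22 tags. The 3 control-specific peaks scored between 5.69 and 6.1.

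LEF1, a factor known from lymphocytes and hair follicles, had neither a peak under its name nor a peak within 10 kb of its span on chromosome 4 (108047545 to 108168956). The nearest peaks were a control-specific peak 190 kb, a depleted-specific peak 432 kb and a common peak 449 kb from its TSS.

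APC, the large scaffold of the destruction complex, had 1 peak, a common promoter peak 13 bp upstream of the TSS. Its score was 7.32 from 18 tags (10.7 to 28.4), and 39.5% of common peaks scored as high or higher. GSK3B, the kinase of the complex, had the highest score of the 47, a common promoter peak of 11 from 27 tags (17.8 to 39.3), and 6.17% of common peaks reached it. The annotation placed it 663 bp upstream of a TSS, and the outermost GENCODE start lay 116 bp from its centre. The other GSK3B peaks were depleted-specific, 65.5 kb and 68.5 kb upstream, with scores of 6.59 from 13 tags and 6.08 from 12 tags, and the nearest control-library peak to the closer of them was the promoter peak 64811 bp away. The promoters of APC and GSK3B were thus listed as open in both libraries, and no control-specific peak was named for either gene.

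AXIN2, a scaffold of the destruction complex that is itself a widely used Wnt target gene, had a common promoter peak 229 bp upstream of the TSS with a score of 6.1 from 15 tags (8.4 to 24.7). Within the gene, a control-specific peak in intron 2 scored 6.1 from 15 tags, 4.22 kb downstream of the TSS. Depleted-specific peaks in introns 2 and 3 scored 5.58 from 11 tags, at 9.72 kb, and 9.13 from 18 tags (10.7 to 28.4), at 14.3 kb. The intron 3 peak was among the highest 5.86% of depleted-specific peaks. A further depleted-specific peak, 3.41 kb upstream, scored 6.08 from 12 tags.

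Away from the gene, AXIN2 peaks ran from 45.6 kb downstream to 129 kb upstream, the farthest 4 in introns of CEP112. The highest AXIN2 score, 9.63 from 19 tags (11.4 to 29.7), was a depleted-specific peak in CEP112 94.9 kb upstream, 22379 bp from the nearest control peak, and 4% of depleted-specific peaks reached it. At 129 kb upstream a control-specific peak (4.88, 12 tags) and a depleted-specific peak (7.6, 15 tags) had centres 315 bp apart. Near 48 kb upstream a control-specific peak (6.51, 16 tags) and a depleted-specific peak (7.1, 14 tags) were 1294 bp apart. The 4 common peaks outside the promoter scored between 5.69 and 7.73. Common and specific peaks of both libraries were therefore interleaved across the AXIN2 region.

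**Figure D3:**
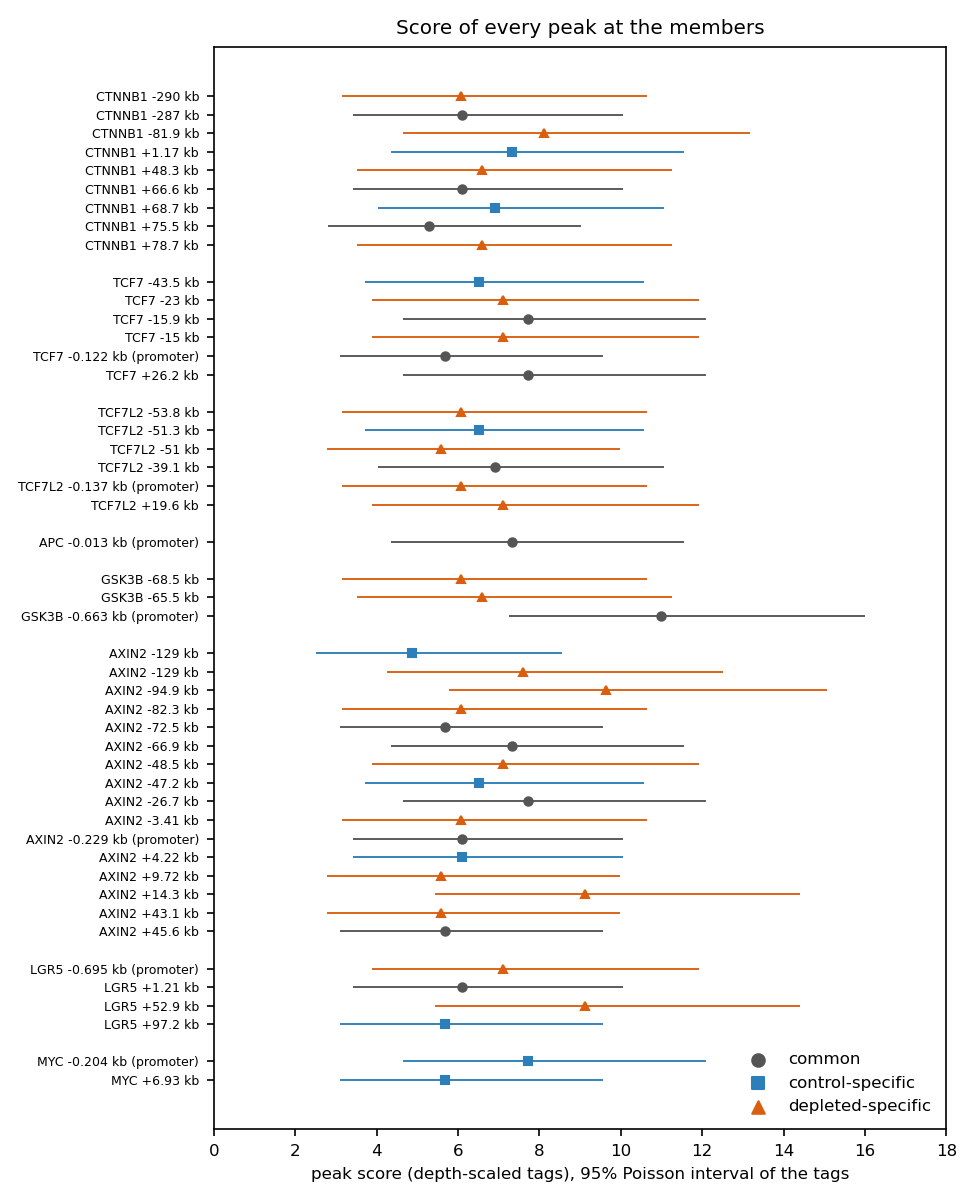
Score of each of the 47 peaks (horizontal axis, depth-scaled tags) with the 95% Poisson interval of its tags, labelled by gene and distance to the TSS and coloured by list. Common peaks carry the control library's score, and the highest score was that of the common GSK3B promoter peak, 11 from 27 tags.

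LGR5, a receptor for R-spondins and a stem cell marker switched on by Wnt signalling, had a depleted-specific promoter peak 695 bp upstream of the TSS. It scored 7.1 from 14 tags (7.65 to 23.5), and 31.8% of depleted-specific peaks scored as high or higher. A common peak in intron 1, 1210 bp downstream of the TSS, scored 6.1 from 15 tags, and its centre was 1905 bp from that of the promoter peak. The start of LGR5 was thus listed as open in both libraries, with an additional window in the depleted library. In intron 1, 52.9 kb downstream, a depleted-specific peak scored 9.13 from 18 tags (10.7 to 28.4), with the nearest control peak 44228 bp away. The control-specific peak of LGR5 lay 97.2 kb downstream and scored 5.69 from 14 tags. A further 3 depleted-specific peaks lay within the LGR5 span widened by 10 kb but carried the name of the neighbour ZFC3H1, with scores from 5.07 to 7.6.

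MYC, the growth regulator on chromosome 8 that is a textbook Wnt target, was the only 1 of the 10 genes whose promoter peak was control-specific. That peak (127735080 to 127735380) lay 204 bp upstream of the TSS and scored 7.73 from 19 tags (11.4 to 29.7), and 5.43% of control-specific peaks scored as high or higher. A depleted-specific promoter peak (127733971 to 127734271) lay 1109 bp from it, with a score of 8.11 from 16 tags (9.15 to 26), but was named for the noncoding gene CASC11, whose start neighbours that of MYC. Measured from the GENCODE start of MYC it was 1313 bp upstream. Each library therefore had 1 listed window in front of MYC, and their tag intervals overlapped. The other MYC peak, at the 3′ end of the gene 6.93 kb downstream, was control-specific with a score of 5.69 from 14 tags (7.65 to 23.5) and held 2 TCF/LEF matches. Its distance was measured from a later TSS, and from the GENCODE start it lay 7730 bp downstream.

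Close neighbours of this kind matter for what specific means, since the sources used here do not state the rule that separated common from specific peaks. Of the control-specific peaks at the Wnt genes, 2 of 10 had a centre within 1000 bp of a peak centre of the other library (20%, interval 2.52 to 55.6), against 21.7% of all control-specific peaks. Of the depleted-specific peaks it was 3 of 22 (13.6%, 2.91 to 34.9), against 14.8%. They were the pairs at TCF7L2 and AXIN2 and the TCF7 peak beside a common one. The shares at the Wnt genes were near those of the lists.

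The local density of peaks differed between the genes. Within 500 kb of the TSS, TCF7 had 11 peaks of any name in the common, 3 in the control-specific and 14 in the depleted-specific list, 6.15 (3.07 to 11), 2.79 (0.575 to 8.15) and 4.17 (2.28 to 7) times the density of chromosome 5. MYC had 4, 5 and 13 peaks, 2.52, 4.28 (1.39 to 10) and 3.66 (1.95 to 6.26) times the density of its chromosome. By count the MYC window held more depleted-specific than control-specific peaks, as did chromosome 8 as a whole (514 and 169), although the peaks named for MYC were control-specific. Relative to the chromosome, the control-specific fold was above the depleted-specific one, with overlapping intervals. TCF7L1 had 26, 21 and 19 peaks, 3.48 (2.27 to 5.1), 2.16 (1.34 to 3.3) and 1.26 (0.758 to 1.97) times its chromosome. The depleted-specific list had the lowest of the 3 folds there. Its interval overlapped that of the control-specific list and lay below that of the common list. TCF7L2 had 7, 4 and 10 peaks, 2.84 (1.14 to 5.84), 2.85 (0.777 to 7.3) and 2.14 (1.02 to 3.93) times its chromosome. AXIN2 had 9, 9 and 21 peaks, 0.799, 0.948 and 1.31 times its chromosome, each with an interval that includes 1. LEF1 had 3, 1 and 2 peaks, all with intervals that include 1. AXIN2 and TCF7L1 lie on chromosomes 17 and 2, where control-specific peaks were 6.19 and 6.35 times as dense as on the median chromosome, and the part of that density in their counts was not tested.

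**Figure D4:**
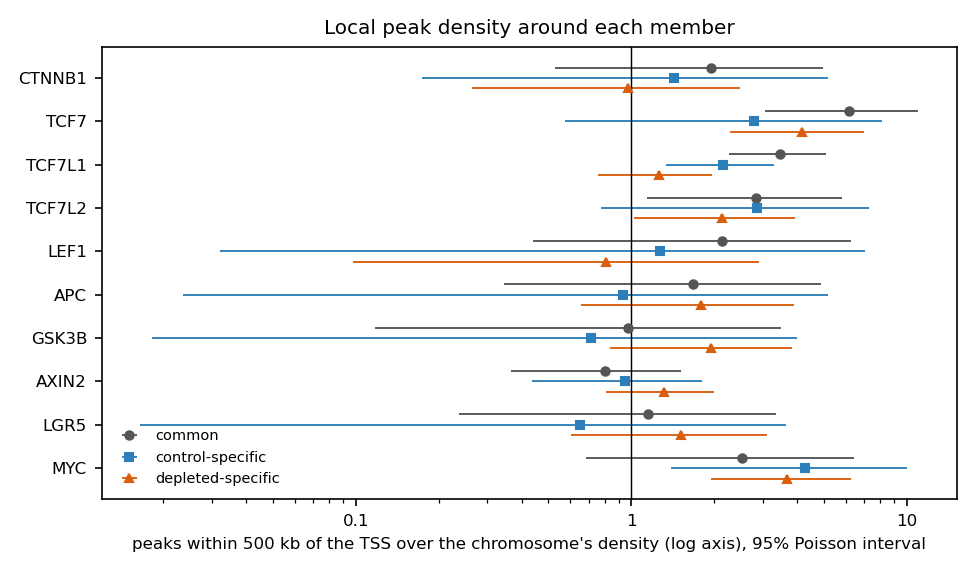
Peaks within 500 kb of each TSS divided by the density of the same list on the same chromosome (horizontal log axis), with 95% Poisson intervals, by gene and list. The common peaks around TCF7 stood 6.15 times over their chromosome, and those around AXIN2 0.799 times.

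Membership by nearest gene left out peaks inside the genes. Over the 10 spans widened by 10 kb there were 39 peaks, of which 23 were named for the gene itself and 16 for another. At TCF7L2, 3 intronic peaks were named for SNORA87, a small nucleolar RNA gene in the locus: a common peak (7.73, 19 tags) and depleted-specific peaks of 7.1 from 14 tags and 7.6 from 15 tags. With them the TCF7L2 span held 2 common and 4 depleted-specific peaks and no control-specific peak. APC gained a depleted-specific peak past its end, named for SRP19 (7.6, 15 tags), and GSK3B a control-specific peak past its end, named for the nuclear receptor gene NR1I2 (5.69, 14 tags). By span the ratio of depleted-specific to control-specific peaks was 1.9, from 19 and 10 peaks.

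TCF/LEF sites were searched in the peaks as CTTTGAA or CTTTGAT on both strands. A match was found in 13 of the 47 peaks (27.7%, 15.6 to 42.6), against 13.4% of all peaks. They lay at CTNNB1 (4 of 9 peaks), AXIN2 (3 of 16), LGR5 (3 of 4), TCF7 (2 of 6) and MYC (1 of 2), and at none of the 6 TCF7L2 peaks, the 3 GSK3B peaks or the APC peak. Outside promoters the share was 27.5% (11 of 40, 14.6 to 43.9), against 14.5%. By list, a match was in 5 of 9 control-specific peaks outside promoters (55.6%, 21.2 to 86.3), against 13.3% of that class in the whole list. It was in 3 of 11 common peaks (27.3%, 6.02 to 61), against 17.2%, and in 3 of 20 depleted-specific peaks (15%, 3.21 to 37.9), against 14%. The 5 control-specific peaks were the intron 1 and 68.7 kb peaks of CTNNB1, the peak 47.2 kb upstream of AXIN2, the peak 43.5 kb upstream of TCF7 and the 3′ end peak of MYC. The interval of the control-specific share, from 9 peaks, did not include the share of its list, while those of the other lists did, and the difference between lists was not tested. These control-specific peaks had a median GC content of 47%, against 43.7% for the class in the list. A match of 7 letters describes the sequence and does not show that a factor was bound.

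**Figure D5:**
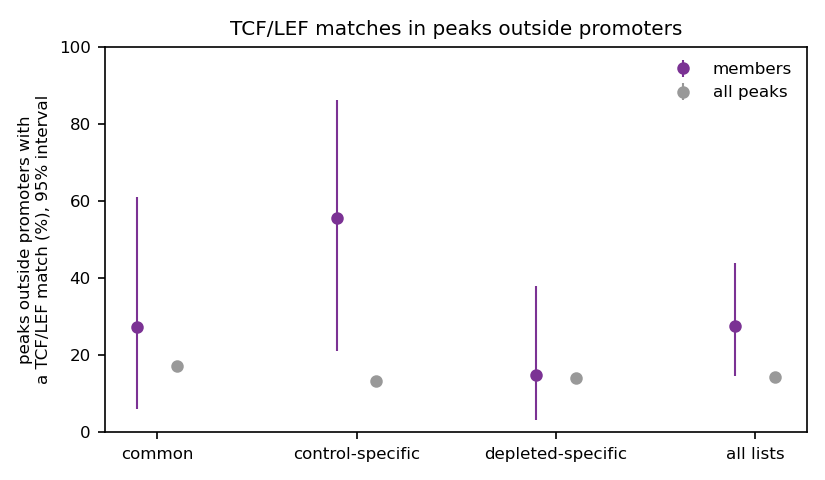
Share of peaks outside promoters that hold CTTTGAA or CTTTGAT on either strand (vertical axis, percent) with exact 95% intervals, by list, at the Wnt genes and over all peaks. The control-specific peaks at the Wnt genes stood at 55.6% (5 of 9) against 13.3% for the list, and the depleted-specific peaks at 15% (3 of 20) against 14%. The difference between lists was not tested.

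The Sp1 site GGGCGG, which binds a general factor of GC-rich promoters, was in 5 of the 7 promoter peaks (71.4%, 29 to 96.3), against 62.3% of all promoter peaks. The promoter peaks without it were those of GSK3B and LGR5. In the RefSeq promoter table on hg38, 7 of the genes had 11 promoter windows, each around an annotated start. None of the 11 held a TCF/LEF match, against 6.86% of 35116 promoters, and 7 held an Sp1 match, against 45%. Of these windows 1 of TCF7L2 and 1 of APC overlapped a listed peak. The windows of CTNNB1, TCF7, TCF7L1, LEF1 and GSK3B overlapped none, although TCF7 and GSK3B had a common promoter peak in the deposited annotation. LGR5, AXIN2 and MYC were not matched.

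Other genes of the pathway gave the setting for these counts. Of 66 further genes, 45 had a peak in any list (68.2%, against 51.7% of protein-coding genes), 32 a common peak (48.5%, against 26.8%), 20 a control-specific peak (30.3%, against 21.0%) and 36 a depleted-specific peak (54.5%, against 36.3%). A promoter peak was at 31 (47%, against 28.1%), common at 18 (27.3%, against 14.5%), control-specific at 2 (3.03%, against 3.65%) and depleted-specific at 14 (21.2%, against 11.7%). Among pathway genes with a promoter peak the depleted-specific share was 45.2% (27.3 to 64), close to the 41.7% of protein-coding genes. Their 271 peaks comprised 63 control-specific and 135 depleted-specific peaks, a ratio of 2.14 (1.58 to 2.94), against 1.57 over all peaks. The depleted-specific share of these specific peaks was 68.2% (61.2 to 74.6), and weighted by their chromosomes 63.2% would be depleted-specific, a value within that interval.

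In the destruction complex and its regulators, 4 of 16 genes (25%) had a promoter peak of the depleted-specific list, against 11.7% of protein-coding genes. They were the casein kinase 1 genes CSNK1A1 (8.11, 16 tags) and CSNK1E (9.13, 18 tags), and TNKS (8.62, 17 tags) and TNKS2 (7.1, 14 tags), whose tankyrases mark AXIN for destruction. The CSNK1A1 peak was 384 bp from a common promoter peak, while that of CSNK1E had its nearest control-library peak 34525 bp away. Control-specific promoter peaks were at 2 of the 16 (12.5%, against 3.65%), namely DVL2, a Dishevelled protein that relays the Wnt signal (5.29, 13 tags), and USP7, a deubiquitinase (5.69, 14 tags and 5.29, 13 tags). USP7 also had the most peaks of this list, 47, on chromosome 16, where control-specific peaks were 15.7 times as dense as on the median chromosome.

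Among nuclear partners of beta-catenin, 5 of 20 genes (25%) had a promoter peak in the depleted-specific list, against 11.7% of protein-coding genes. None had one in the control-specific list, where the share of protein-coding genes was 3.65%. They were the Groucho corepressors TLE2 (6.08, 12 tags) and TLE4 (9.13, 18 tags), the acetyltransferase CREBBP (6.08, 12 tags), CDC73 of the PAF1 complex (10.1, 20 tags) and the arginine methyltransferase CARM1 (10.1, 20 tags). The nearest control-library peak was at least 11482 bp away in each case. The corepressor TLE1 had the most peaks of the list, with 1 common, 1 control-specific and 11 depleted-specific. CHD8, a chromatin remodeller, followed with 9 peaks and common promoter peaks of 18.3 from 45 tags and 9.76 from 24 tags, and TLE3 had 5.

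Of 30 Wnt targets, 5 (16.7%) carried a promoter peak in the depleted-specific list, near the 11.7% of protein-coding genes, and none in the control-specific list, against 3.65%. They were ZNRF3, a ligase that removes Wnt receptors (8.11, 16 tags), TNFRSF19 (2 peaks of 6.59, 13 tags each), the survivin gene BIRC5 (8.62, 17 tags), the Notch ligand JAG1 (10.6, 21 tags) and BMP4 (8.11, 16 tags). The JAG1 peak was 810 bp from a common promoter peak, and the others were 8490 bp or more from a control-library peak. The paper had picked JAG1 and PPARD, both in this target list, partly by promoter peaks it counted as depleted-specific in these same data. This count, and that over all further pathway genes, is therefore not independent of the data. In the lists used here, however, the PPARD promoter peak was common (7.73, 19 tags), and its depleted-specific peaks lay outside promoters. Most peaks were at JAG1, with 4 common, 10 control-specific and 12 depleted-specific, at the T-box gene TBX3, with 5, 3 and 10, and at the feedback inhibitor NKD1, with 4, 4 and 8. JAG1 lies on chromosome 20 and NKD1 on chromosome 16, where control-specific peaks were 35.5 and 15.7 times as dense as on the median chromosome. Promoter peaks were listed at 13 of the 30 targets (43.3%, against 28.1% of protein-coding genes). A common one was at 9 of the 30 (30.0%, against 14.5%).

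The cell type was checked by promoter peaks at marker genes. Common promoter peaks were listed at the hepatocyte genes APOA1, APOB, SERPINA1, HNF4A, FOXA1 and FOXA2, while ALB, AFP and TTR had no promoter peak. Over protein-coding genes, 14.5% had a common promoter peak. APOB lies on chromosome 2, SERPINA1 and FOXA1 on chromosome 14, and HNF4A and FOXA2 on chromosome 20. Control-specific peaks on those chromosomes were 6.35, 24 and 35.5 times as dense as on the median chromosome. On chromosome 4 (ALB and AFP) and chromosome 18 (TTR) they were 0.516 and 0.562 times as dense. The part of that density in these promoter peaks was not tested. HNF4A had a control-specific promoter peak as well. Of 8 markers of blood, stromal, endothelial, epithelial and glial cells, none had a promoter peak in any list, against 28.1% of protein-coding genes. A peak of any class was at 3 of the 8 (37.5%, against 51.7%). So few markers make this a weak check of the cell type.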

How the data were processed

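FAIRE-seq of 1 control and 1 NR2E3-depleted HepG2 library was grouped by the treatment given in the labels. Per the submitters' processing notes, the authors used bcl2fastq 2.17, Trimmomatic 0.39, Bowtie2 2.4.5, SAMtools 1.14 and hg38. Peaks were called with HOMER at a q-value threshold and annotated with the same tool, and no correction for copy number is stated. The deposited peak score is the authors' depth-scaled tag number. Every score under 10 was a whole multiple of 1 step per list within a tolerance of 0.005, and tags are the score over that step. If scores are per 10 M tags (M, mega), an inferred scale, the control library held 24.6 M and the depleted library 19.7 M. Sequenced DNA without molecular identifiers need not be independent molecules, so intervals cover counting error only.

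Peaks were selected by the deposited gene name, and distances and classes were taken as deposited. Shares carry exact Clopper-Pearson, tags exact Poisson and ratios exact binomial intervals at 95%. Coordinates are as deposited, and sequences run from the base after the listed start to the listed end. The named genes were all 10 Wnt genes and, of 3 pathway lists, genes with a specific promoter peak and the 3 with the most peaks in each. The genes and lists were chosen with earlier results of these data known. All lists matched the gene table, and 1 hepatocyte marker is not reported here. Gene spans came from GENCODE release 44 and the calculations were tested on simulated data. Alternatives changed the tag or score minimum, the distance taken as shared, gene assignment, promoter width, motif and the chromosomes used. The software was pandas 2.3.3, scipy 1.17.1, numpy 2.4.6, pysam 0.24.0 and matplotlib 3.10.9 under Python 3.11.15.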

Additional observations from a re-analysis of the deposited data

How the results depend on the processing

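Of 35 alternative values, 25 kept their direction and stayed within 1.5 times the count or within the interval reported, 9 moved and 1 reversed. With peaks of 15 or more tags, the ratio of depleted-specific to control-specific peaks at the 10 Wnt genes turned from 2.2 to 0.714, genes with a depleted-specific peak fell to 3 (AXIN2, CTNNB1 and LGR5) and genes with a promoter peak to 4 (APC, AXIN2, GSK3B and MYC). Among the 66 other pathway genes this filter left 20 with a depleted-specific, 13 with a control-specific and 0 with a control-specific promoter peak. It is unequal by construction, keeping 45.8% of the control-specific list and 20.6% of the depleted-specific list, since the libraries differ in depth, and it turned the ratio over all peaks to 0.707 as well. An equal score of 6 or more, an alternative chosen after seeing the data, gave a ratio of 2.71 and left 13 pathway genes with a control-specific peak and 0 with a control-specific promoter peak, but it asks 15 tags of the control and 12 of the depleted library. Promoters taken as within 3000 bp of the TSS gave 7 pathway genes with a control-specific and 21 (from 14) with a depleted-specific promoter peak, and added CTNNB1 to the Wnt genes. No share of all protein-coding genes is given for these gene counts under the changed settings. Whether the changes are particular to these genes was not tested. The core CTTTG was in 80.9% of the Wnt gene peaks, against 65.3% of all peaks. The TCF/LEF share was 19.1% within 100 bp of the peak centre. No share over all peaks is given for that narrower window, and the 13.4% above is for whole peaks. Specific peaks near the other library taken as shared gave a ratio of 2.38, and leaving out AXIN2 and TCF7L1, on dense chromosomes, gave 2. No paired analysis was possible because control and depleted cells gave a single library apiece and no result came from a test, and for the same reason no replicate could be left out. Depth limits single peaks at the Wnt genes to 11 to 27 tags, and a peak missing from a list may lie just under the listing threshold.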
